A study of Rattus norvegicus with 20 samples.

Results

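Amino acid transporters are membrane proteins that move amino acids across the cell surface, and 10 of their genes were followed in rat mammary cancers and normal mammary tissue. They were taken as the array probes whose RefSeq accession maps to one of the 10 genes. Of the 10, 9 had such a probe, with 11 probes in all, among the 36043 genes tested in the series. Slc7a11, the cystine and glutamate exchanger, was not analysed here. All 9 passed the filter on dim probes. Slc38a4 had been picked for its level in cancers of obesity-prone rats and Slc7a10 for its level in fatty normal tissue, so these contrasts are described for those genes without a test.

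The arrays compared cancers and normal glands of female Sprague-Dawley (Jcl:SD) rats that differed in diet and, on a fatty diet, in body weight. Cancers came from obesity-prone rats (OP, 6 arrays), obesity-resistant rats (OR, 3 arrays) and lean controls (LC, 3 arrays), and normal mammary tissue from OP (3 arrays), OR (2 arrays) and LC rats (3 arrays) of matched age. OP and OR rats ate a diet with 45 kcal% from fat and were separated by body weight at 7 weeks of age, whereas LC rats ate one with 10 kcal%. Every rat, those that gave normal tissue included, had been exposed to 4 Gy of gamma rays from caesium-137 at 0.5 Gy per minute at 7 weeks of age and was followed for 30 weeks. Whether the samples of a group are different rats is not stated in the labels, and p-values cover only how far these arrays scatter, which may be technical.

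The transporters belong to the Slc38, Slc7, Slc3 and Slc1 families. Slc38 proteins carry small neutral amino acids with sodium: Slc38a1, Slc38a2 and Slc38a4 (SNAT1, SNAT2 and SNAT4) form system A, and Slc38a3 (SNAT3) is a system N glutamine carrier. Slc7 light chains exchange amino acids across the membrane and reach it bound to the heavy chain Slc3a2 (4F2hc, CD98). Slc7a5 (LAT1) exchanges large neutral amino acids such as leucine, Slc7a10 (Asc-1) exchanges small ones such as serine and is known as a surface marker of white fat cells in mouse and human, and Slc1a4 and Slc1a5 (ASCT1 and ASCT2) exchange alanine, serine, cysteine and, for Slc1a5, glutamine. Many of these genes are known targets of ATF4, the transcription factor of the amino acid response.

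Slc38a1, Slc38a2 and Slc38a4 lie next to each other on rat chromosome 7, with 0 protein-coding genes between Slc38a1 and Slc38a2 and 0 between Slc38a2 and Slc38a4 in the RefSeq annotation. The promoter windows of these neighbours, of Slc7a5 and Slc7a10, the Slc7 light chains that were higher and lower in every cancer, and of Slc1a4, which held a pair of motifs, are printed below from RefSeq (build GRCr8, not the older build that the array files name). Each runs 5′ to 3′ on the strand of the gene, from 250 bases before to 50 bases after its start. Capitals mark matches, on either strand, to the core of the ATF4 and C/EBP composite element (TGATGNAA), the MYC E-box (CACGTG), the NRF2 element core (TGACNNNGC) or the C/EBP core (TTGCNNAA).
Slc38a4, chr7:130082120-130082419, minus strand: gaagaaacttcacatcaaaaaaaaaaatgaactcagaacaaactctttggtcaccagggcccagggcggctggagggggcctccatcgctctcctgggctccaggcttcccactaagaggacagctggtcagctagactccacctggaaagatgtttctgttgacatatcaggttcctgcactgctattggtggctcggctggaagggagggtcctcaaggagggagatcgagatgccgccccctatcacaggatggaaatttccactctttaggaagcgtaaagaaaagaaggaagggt
Slc38a2, chr7:129742570-129742869, minus strand: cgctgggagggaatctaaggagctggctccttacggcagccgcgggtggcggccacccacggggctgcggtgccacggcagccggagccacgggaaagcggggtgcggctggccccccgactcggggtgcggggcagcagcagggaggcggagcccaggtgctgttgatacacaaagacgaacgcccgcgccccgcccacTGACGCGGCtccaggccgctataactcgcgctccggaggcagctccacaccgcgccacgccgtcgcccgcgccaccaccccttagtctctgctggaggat
Slc38a1, chr7:129681352-129681651, minus strand: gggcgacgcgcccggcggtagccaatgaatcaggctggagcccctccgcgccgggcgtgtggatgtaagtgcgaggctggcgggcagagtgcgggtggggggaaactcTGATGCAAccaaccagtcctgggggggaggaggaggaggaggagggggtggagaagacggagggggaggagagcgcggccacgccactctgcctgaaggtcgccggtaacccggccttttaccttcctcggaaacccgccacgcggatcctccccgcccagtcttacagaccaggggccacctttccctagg
Slc7a5, chr19:66872363-66872662, minus strand: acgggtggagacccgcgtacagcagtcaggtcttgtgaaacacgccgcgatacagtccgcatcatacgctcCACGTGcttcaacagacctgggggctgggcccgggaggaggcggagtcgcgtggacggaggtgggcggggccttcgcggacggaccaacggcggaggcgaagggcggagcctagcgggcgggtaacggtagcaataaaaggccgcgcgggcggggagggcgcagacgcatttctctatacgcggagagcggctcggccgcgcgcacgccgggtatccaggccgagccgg
Slc1a4, chr14:98761513-98761812, minus strand: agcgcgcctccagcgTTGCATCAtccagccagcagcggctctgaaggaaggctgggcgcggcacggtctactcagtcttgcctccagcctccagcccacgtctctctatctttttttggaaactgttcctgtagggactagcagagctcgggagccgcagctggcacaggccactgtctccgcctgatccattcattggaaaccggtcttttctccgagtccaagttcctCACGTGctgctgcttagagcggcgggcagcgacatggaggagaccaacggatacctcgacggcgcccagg
Slc7a10, chr1:96965872-96966171, plus strand: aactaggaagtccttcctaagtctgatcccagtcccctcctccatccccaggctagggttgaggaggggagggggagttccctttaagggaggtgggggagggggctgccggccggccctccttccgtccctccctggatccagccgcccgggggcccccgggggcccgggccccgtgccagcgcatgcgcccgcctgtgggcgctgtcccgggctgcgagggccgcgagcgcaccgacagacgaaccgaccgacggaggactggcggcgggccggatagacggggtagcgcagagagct

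The 3 neighbours on chromosome 7 held different letters. Slc38a1 had TGATGCAA from position -142, counted from the start of the gene, Slc38a2 had TGACGCGGC from position -50, and Slc38a4 had none of the 4 motifs in its window. Slc1a4 had the composite core on the other strand (TTGCATCA, from position -235) and the E-box at position -20, and Slc7a5 had the E-box at position -179. The Slc7a10 window held none of the 4 motifs. Among 33469 rat promoter windows of the same length, 3.98% held the composite core, 6.42% the E-box, 12.1% the NRF2 core and 10.6% the C/EBP core, and no matches overlapped in the printed windows. GC content was 52% in the Slc38a4 window and 72.3% in that of its neighbour Slc38a2. RefSeq windows were matched for 8 of the 10 genes.

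Levels below are log2 intensities after background correction and quantile normalization, so each step of 1 is a doubling, and levels of different genes are not set against each other because each probe has its own brightness. Cancers read 61.8% to 79.6% of spots well above background and normal tissues 87.9% to 97.7%. The arrays lay on 5 slides: slides 4 and 5, read on the first scan day, held cancers alone, and slides 1 to 3, read on the second, held both tissues. Of 14 adipocyte markers tested, 14 were lower in cancers, with mean levels per array of 7.79 to 8.39 in cancers and 12.07 to 12.94 in normal tissue, and of 12 luminal epithelium markers 12 were higher in cancers (11.85 to 12.86 in cancers and 9.36 to 11.32 in normal tissue). The adipocyte markers Aqp7 and Lep were well above background in 0 of 12 cancers, and each of the other adipocyte markers in 7 to 12 of them. In whole tissue, fewer cells of a type and less RNA per cell cannot be told apart.

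**Figure D1:**
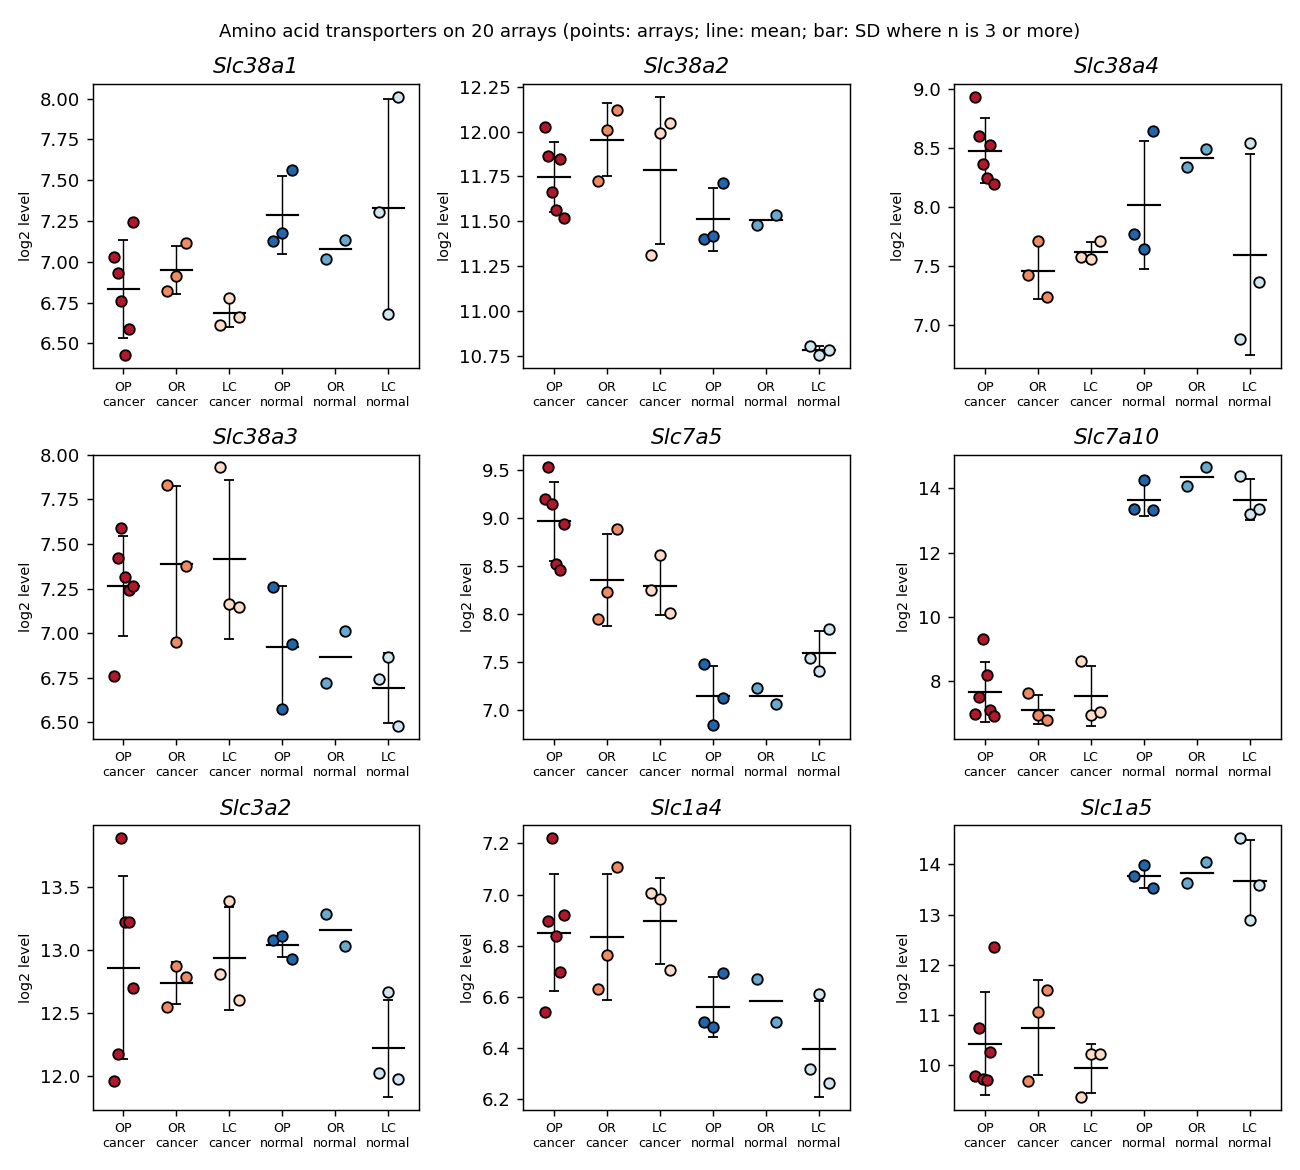
Log2 level (y axis) of the 9 measured transporters on the 20 arrays, by group (x axis), with points for arrays, lines for group means and bars for SD where a group has 3 or more arrays. Slc7a10 and Slc1a5 lie lower and Slc7a5 lies higher on all 12 cancers than on all 8 normal tissues, and Slc38a4 lies higher in the 6 OP cancers than in the 6 other cancers.

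Across the whole series, cancers differed from normal tissue in most of the measured transporters, in both directions. Of the 7 members whose tissue contrast was not used to pick them, 4 were higher (Slc7a5, Slc38a2, Slc38a3 and Slc1a4), 2 were lower (Slc1a5 and Slc38a1) and Slc3a2 was not called at an adjusted p under 0.05. Over all 36043 genes, 29.0% were called higher and 33.5% lower, so being called is common in this contrast. Slc7a5 lay above 96.8% of genes in its signed difference (cancers minus normal tissue), whereas Slc1a5 lay above 0.213%. A difference is the average over OP, OR and LC rats of the cancer mean less the normal tissue mean, and adjusted p-values are limma's with Benjamini-Hochberg adjustment over all genes.

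Slc7a5, the light chain of the leucine exchanger, was higher in every cancer than in every normal tissue. In OP cancers its level ran from 8.47 through a median of 9.04 to 9.53. OR cancers read 7.95, 8.24 and 8.89, and LC cancers 8.26, 8.62 and 8.02. Normal tissues stayed lower, at 7.48, 6.85 and 7.12 in OP, 7.23 and 7.07 in OR, and 7.54, 7.40 and 7.85 in LC rats. The difference was 1.24 ± 0.16 on the log2 scale (SE), a 2.36-fold higher level, with an adjusted p of 6.4e-06 (limma). Within slides 1, 2 and 3, which held 1 or 2 cancers and 2 or 3 normal tissues each, it was 1.22, 2.37 and 0.60. Over all genes, 8.63% lay wholly higher and 11.6% wholly lower in the 12 cancers than in the 8 normal tissues.

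Slc1a5, the ASCT2 glutamine exchanger, went the other way and was lower in every cancer. OP cancers ran from 9.71 through a median of 10.02 to 12.35. OR cancers read 9.68, 11.06 and 11.50, and LC cancers 9.37, 10.21 and 10.23. Normal tissue read 13.77, 13.98 and 13.53 in OP, 13.62 and 14.05 in OR, and 14.52, 12.89 and 13.58 in LC rats, with no overlap. The difference was -3.38 ± 0.35 (SE), a 10.4-fold lower level (limma adjusted p = 8.0e-07). The probe was well above background on all 12 cancers and all 8 normal tissues. On slides 1, 2 and 3 taken alone the difference was -4.56, -2.76 and -4.04.

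Slc7a10, the serine exchanger of fat cells, is described without a test for this contrast because it was picked on it. OP cancers ran from 6.92 through a median of 7.30 to 9.30, OR cancers read 7.63, 6.94 and 6.78, and LC cancers 8.62, 6.96 and 7.05. Normal tissue read 13.35, 14.25 and 13.33 in OP, 14.07 and 14.64 in OR, and 14.37, 13.20 and 13.37 in LC rats. The gap was -6.44 on the log2 scale with the brighter probe, and -5.65 with the dimmer one, which was well above background on 8 of 12 cancers. Among the normal tissues no difference by diet was called for it. The OP and OR tissues averaged 13.93 ± 0.57 (SD, n = 5) and the LC tissues 13.65 ± 0.63 (SD, n = 3), a difference of 0.36 with a 95% interval of -0.49 to 1.21 (limma adjusted p = 0.76).

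**Figure D2:**
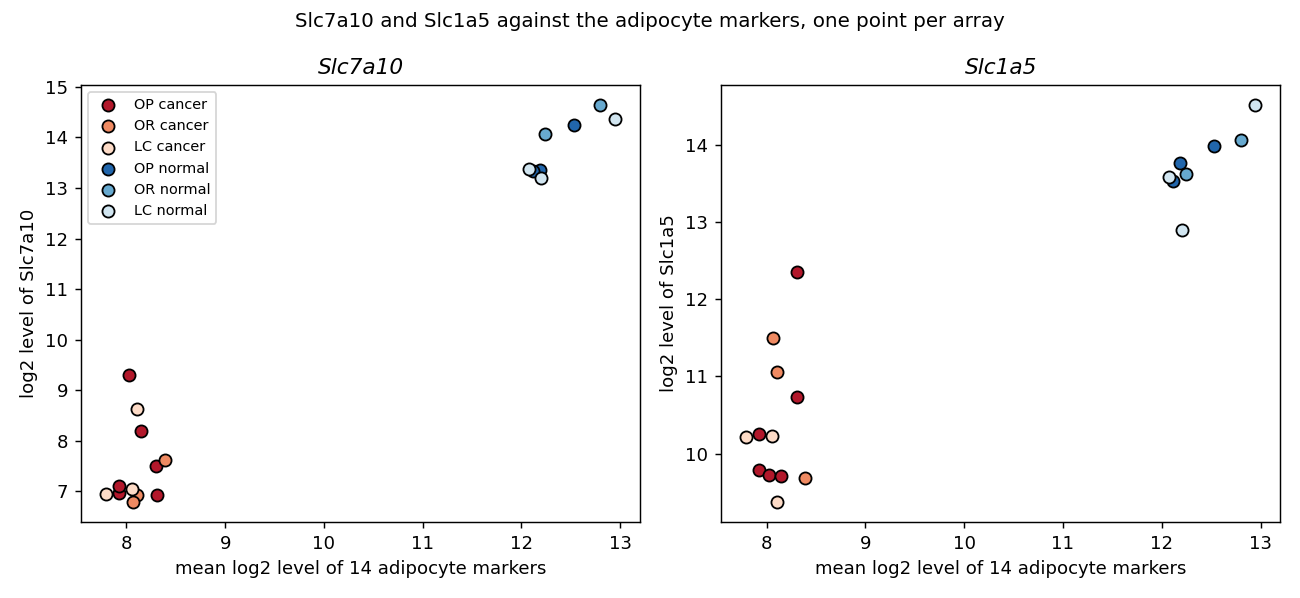
Log2 level of Slc7a10 (left) and Slc1a5 (right) on each array against the mean log2 level of 14 adipocyte markers on the same array. The cancers lie between 7.79 and 8.39 and the normal tissues between 12.07 and 12.94 on the marker axis, and among cancers the highest Slc7a10 (9.30) and the highest Slc1a5 (12.35) are on different arrays, both from OP rats.

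The adipocyte markers moved with both genes across tissues. Markers of fibroblasts and matrix (7 of 8), endothelium (3 of 3) and nerve and Schwann cells (4 of 5) were also called lower in cancers. Among all genes 33.5% were called lower. The part of any of these cells in the low cancer levels was not tested. Within the cancers, the array with the most Slc7a10 (OP cancer 3, 9.30) had an adipocyte marker mean of 8.03, inside the range of the other cancers. Its milk gene mean was 15.89. LC cancer 1, OP cancer 4 and OR cancer 1, next highest in Slc7a10, had milk gene means of 15.43, 15.92 and 15.63. The remaining cancers had 9.10 to 14.62, and a link was not tested. The array with the most Slc1a5 (OP cancer 6, 12.35) had one of 8.31. OP cancer 6 also had the highest means of all cancers for fibroblast and matrix (15.32), macrophage (13.63), T and NK cell (9.71) and skeletal muscle (10.99) markers. By a likeness rule, the 5 named genes with the highest Pearson correlation with Slc7a10 over the 8 normal tissues were Adipor2, an adiponectin receptor (r = 0.97), Ptger3, a prostaglandin E receptor (r = 0.97), Bnip3l, a mitophagy receptor (r = 0.97), Lep, the hormone leptin (r = 0.96), and Ywhag, a 14-3-3 protein (r = 0.96). These are descriptions over 8 arrays. Slc1a5 and Slc7a10 had r = 0.77 over the same 8 arrays and r = -0.60 over the 12 cancers.

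Slc38a2, the SNAT2 carrier known to be induced when cells lack amino acids, was higher in cancers. OP cancers ran from 11.52 through a median of 11.75 to 12.03, OR cancers read 11.73, 12.01 and 12.12, and LC cancers 11.31, 11.99 and 12.05. Normal tissue read 11.40, 11.42 and 11.71 in OP, 11.48 and 11.54 in OR, and 10.81, 10.75 and 10.78 in LC rats. The cancers overlapped the normal tissues of the rats on the fatty diet and lay above all 3 LC tissues. The difference was 0.56 ± 0.10 (SE, limma adjusted p = 0.00015), and the second probe gave 0.66 (adjusted p = 5.4e-06). Within slides 1, 2 and 3 it was 0.57, 0.65 and 0.38.

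Slc38a1, Slc38a3 and Slc38a4 are the other Slc38 carriers measured. Slc38a1 ran from 6.43 to 7.25 in the 12 cancers and from 6.68 to 8.01 in the 8 normal tissues, was well above background in 8 of the 12 cancers, and fell by 0.41 (limma adjusted p = 0.023), a call that was lost with the slide as a block (adjusted p = 0.060), with a scan day block (adjusted p = 0.12) and without OR normal tissue 2 (adjusted p = 0.062). With the 75th-percentile scalings Slc38a1 fell by 2.83 (processed signal, adjusted p = 5.7e-06) and 1.36 (normexp, adjusted p = 9.7e-07), which was -1.32 and -0.56 relative to the median of all genes. Slc38a3 ran from 6.76 to 7.93 in cancers and from 6.48 to 7.26 in normal tissue, a difference of 0.53 (adjusted p = 0.0055). Within slides 1, 2 and 3 the differences were -0.39, -0.026 and -0.75 for Slc38a1 and 0.34, 0.70 and 1.02 for Slc38a3. Slc38a4 ran from 7.24 to 8.93 in cancers and from 6.89 to 8.64 in normal tissue, a gap of -0.16 that was 0.0091 with the slide as a block, -0.94 with the processed signal scaled to the 75th percentile and -0.66 with normexp scaled so.

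Slc3a2, the heavy chain that Slc7a5 and Slc7a10 need to reach the membrane, was not called. OP cancers ran from 11.95 through a median of 12.96 to 13.89, OR cancers read 12.55, 12.87 and 12.79, and LC cancers 12.81, 13.39 and 12.60. Normal tissue read 13.08, 13.11 and 12.93 in OP, 13.29 and 13.03 in OR, and 12.02, 12.66 and 11.97 in LC rats. The difference between cancers and normal tissue was 0.037 with a 95% interval of -0.42 to 0.50 (limma adjusted p = 0.89). This is an average of differences that varied in sign, at -0.18 in OP, -0.42 in OR and 0.72 in LC rats, none called. Slc7a5 stood at 1.82, 1.21 and 0.70 in the same order. With normexp scaled to the 75th percentile the average was 0.27 for Slc3a2 and 0.63 for Slc7a5. Slc1a4, the ASCT1 exchanger, ran from 6.54 to 7.22 in cancers, 8 of 12 of them well above background, and from 6.26 to 6.69 in normal tissue, a difference of 0.35 (adjusted p = 0.0036) that lost its call with the slide (adjusted p = 0.070) or the scan day (adjusted p = 0.082) as a block.

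The higher calls of Slc38a3 and Slc1a4 depended on how arrays were scaled. When each array was scaled to its 75th percentile without quantile normalization, the median of all genes shifted by -1.51 with the processed signal and by -0.80 with normexp, and the share of calls that were higher fell to 17.8% and 17.3%, against 46.4% with quantile normalization. Slc38a3 then stood at -0.60 and -0.46 and Slc1a4 at -1.31 and -0.67, below 0, although relative to the median of all genes Slc38a3 stood at 0.91 and 0.34 and Slc1a4 at 0.20 and 0.13. Slc7a5, Slc38a2 and Slc1a5 kept their direction and their call under these scalings and in the authors' deposited table of log2 values.

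**Figure D3:**
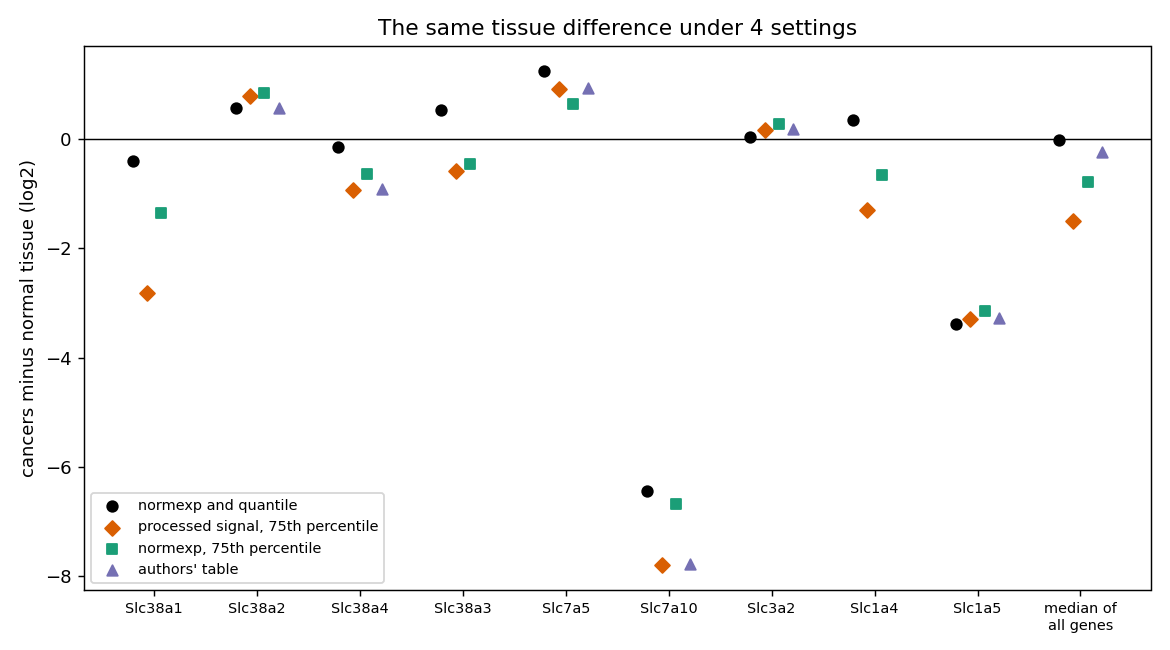
Cancers minus normal tissue on the log2 scale (y axis) for the 9 transporters and for the median of all genes (x axis), under quantile normalization, under 2 scalings to the 75th percentile and in the authors' table, which holds 6 of the 9. Slc7a5 and Slc38a2 lie above 0 and Slc7a10 and Slc1a5 below 0 in every setting shown, whereas Slc38a3 and Slc1a4 change sign with the scaling.

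The difference between cancers and normal tissue was also fitted within OP, OR and LC rats. In OP rats, Slc7a5 was higher (1.82, limma adjusted p = 4.8e-05) and Slc1a5 lower (-3.33, adjusted p = 0.00019) in cancers, 2 of 7 members against 44.6% of all genes called. In OR rats the same pair was called, Slc7a5 at 1.21 (adjusted p = 0.0090) and Slc1a5 at -3.09 (adjusted p = 0.0037), against 28.4% of all genes, and neither was called without OR normal tissue 2, which leaves 1 normal array. The Slc7a5 call in OR rats was also lost with both 75th-percentile scalings, in the authors' deposited table and with the slide as a block (adjusted p up to 0.30), whereas Slc1a5 was called in OR rats in all 10 alternative settings. In LC rats 5 of 7 members were called, against 43.6% of all genes: Slc38a2 (1.002, adjusted p = 0.00039), Slc38a3 (0.72, adjusted p = 0.032) and Slc1a4 (0.50, adjusted p = 0.018) were higher and Slc1a5 (-3.73, adjusted p = 0.00024) and Slc38a1 (-0.65, adjusted p = 0.0497) lower. Slc7a5 stood at 0.70 in LC rats with an adjusted p of 0.051. Slc38a2 and Slc1a5 were called in LC rats in all 10 alternative settings and without any 1 of the 20 arrays. Slc38a1 was not called without the filter on dim probes, with the scan day as a block or with array weights, nor in 17 of the 20 fits that left out 1 array. Slc38a3 lost its call with both 75th-percentile scalings, array weights and the replicate block, and without LC cancer 1, LC normal tissue 1 or LC normal tissue 3. Slc1a4 lost it with both scalings, the slide or scan day as a block and array weights, and without any 1 of LC cancers 1 and 2 and LC normal tissues 1 and 3.

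**Figure D4:**
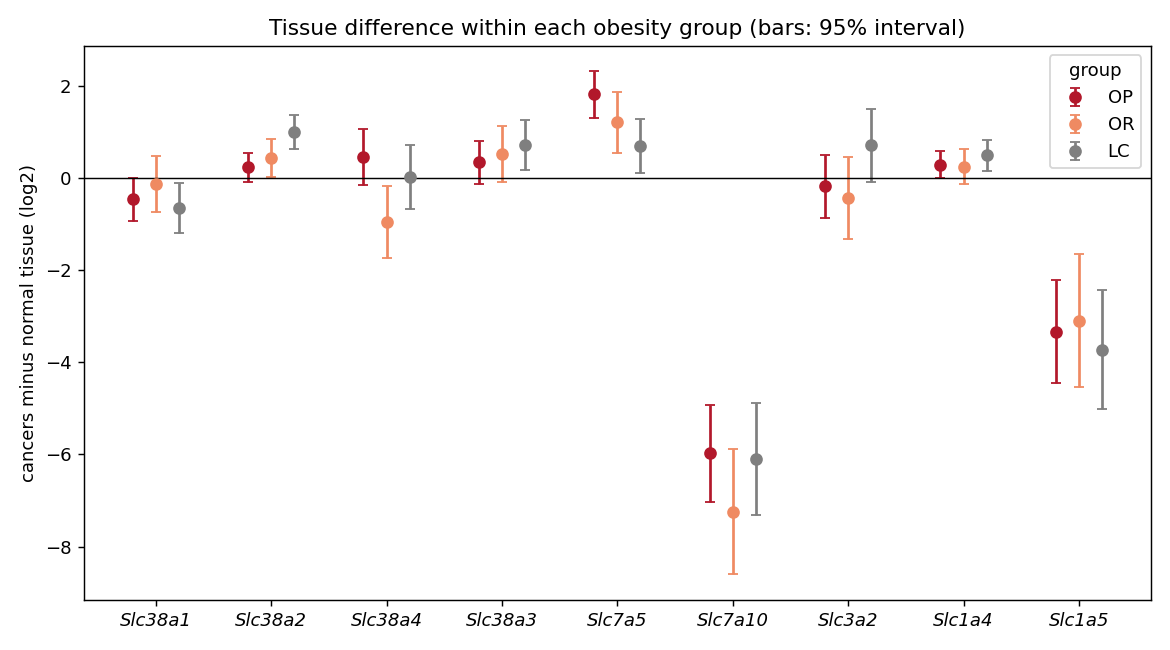
Cancers minus normal tissue on the log2 scale (y axis) for each transporter (x axis) within OP, OR and LC rats, with 95% intervals from the limma fit. Slc7a5 differed by 1.82 in OP rats, by 1.21 in OR rats and by 0.70 in LC rats, Slc38a2 by 0.24, 0.45 and 1.002 in the same order, and Slc1a5 and Slc7a10 lie far below 0 in all 3.

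The test of whether the tissue difference itself differed between OP rats and the mean of OR and LC rats called 0 of 7 members and 0 of 36043 genes (0%). The difference of differences was 0.86 for Slc7a5 (95% interval 0.19 to 1.53, unadjusted p = 0.015 in limma, adjusted p = 1.0) and -0.49 for Slc38a2 (95% interval -0.91 to -0.06, unadjusted p = 0.027, adjusted p = 1.0). At an unadjusted p under 0.05, 1547 genes passed in this comparison. The LC normal tissues had the lowest Slc38a2 levels of all 6 groups.

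Slc38a4 was the transporter picked for OP cancers. Its levels in OP cancers were 8.93, 8.60, 8.37, 8.25, 8.53 and 8.19, against 7.42, 7.72 and 7.24 in OR cancers and 7.58, 7.56 and 7.72 in LC cancers. The lowest OP cancer (8.19) lay above the highest of the other cancers (7.72), a gap of 0.94 between the means, 1.92-fold, described without a test. The gap was 1.44 with the slide as a block and 1.65 with the processed signal scaled to the 75th percentile. On slide 1, which alone holds an OP cancer and another cancer, the levels were 8.93 in the OP and 7.58 in the LC cancer. The OP cancers were not above normal tissue as a whole, which read 7.78, 7.64 and 8.64 in OP, 8.34 and 8.49 in OR, and 6.89, 8.54 and 7.37 in LC rats.

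In normal tissue, where Slc38a4 had not been picked, no difference by obesity was called. OP tissues averaged 8.02 ± 0.54 (SD, n = 3), OR tissues 8.42 (n = 2) and LC tissues 7.60 ± 0.85 (SD, n = 3), and OP minus the mean of OR and LC was 0.012 with a 95% interval of -0.97 to 0.996 (limma adjusted p = 1.0). The interval holds the 0.94 seen in cancers. By the likeness rule, the 5 named genes closest to Slc38a4 over the 12 cancers were Tram1, a translocon protein (r = 0.95), Prkacb, a catalytic subunit of protein kinase A (r = 0.94), Tmed5, a cargo receptor of the early secretory pathway (r = 0.91), Ptbp3, an RNA-binding protein (r = 0.90), and Zdhhc17, a palmitoyltransferase (r = 0.89). Part of each of these values is the gap between OP and the other cancers. Within the 6 OP cancers the 5 genes had r = 0.77 to 0.88 with Slc38a4, and within the 6 OR and LC cancers r = -0.063 to 0.76. The 5 genes were picked over these same arrays, so the values within groups are no separate check. Of its neighbours on chromosome 7, Slc38a2 had the same order of arrays as Slc38a4 within the 6 OP cancers (r = 0.98) but r = -0.075 within the 6 OR and LC cancers, and the second Slc38a2 probe did not share that order in the OP cancers (r = 0.019). Slc38a1 had r = 0.18 within the OP cancers and -0.66 within the OR and LC cancers. These are descriptions over few arrays, and 4 of the 6 OP cancers lie on slide 4.

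None of the other 8 members differed between OP cancers and the OR and LC cancers at an adjusted p under 0.05, as was so for 0 of 36043 genes (0%) with limma, where 4099 genes had an unadjusted p under 0.05. Slc7a5 came nearest, 8.97 ± 0.41 in OP cancers (SD, n = 6) and 8.33 ± 0.36 in OR and LC cancers (SD, n = 6), a difference of 0.64 with a 95% interval of 0.17 to 1.11 (unadjusted p = 0.012, adjusted p = 0.32). The OP range overlapped that of the OR cancers, whose highest array read 8.89, and that of the LC cancers. For Slc38a1, Slc1a4 and Slc3a2 the differences were 0.014 (95% interval -0.27 to 0.30), -0.015 (-0.28 to 0.25) and 0.025 (-0.64 to 0.69). Over all genes, 0.422% lay wholly higher and 0.413% wholly lower in the 6 OP cancers than in the 6 others.

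The diet comparison among cancers, OP and OR cancers against LC cancers, called 0 of 8 members and 0% of all genes, with 1468 genes at an unadjusted p under 0.05. The largest difference in size was that of Slc1a5, 0.65 with a 95% interval of -0.57 to 1.88 (limma adjusted p = 0.99). OP cancers against OR cancers and LC cancers taken singly gave 0.55 and 0.12 for Slc7a10 (adjusted p = 0.72 and 0.98).

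Normal tissue of rats on the fatty diet had more Slc38a2 and Slc3a2 than that of LC rats on every array, although neither passed the threshold. Slc38a2 averaged 11.51 ± 0.13 in the OP and OR tissues (SD, n = 5) and 10.78 ± 0.03 in the LC tissues (SD, n = 3), a difference of 0.73 with a 95% interval of 0.51 to 0.95 (limma adjusted p = 0.072). The second Slc38a2 probe also separated the groups, at 8.20 to 8.44 in the OP and OR tissues and 7.88 to 8.02 in the LC tissues, with a smaller difference of 0.37 (adjusted p = 0.16). Slc3a2 averaged 13.09 ± 0.13 and 12.22 ± 0.39 in the same groups, a difference of 0.88 (95% interval 0.46 to 1.31, adjusted p = 0.13). No gene of the 36043 was called (0%), 4378 had an unadjusted p under 0.05, and 6.18% lay wholly higher and 4.1% wholly lower in the OP and OR tissues.

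These 2 differences rested on 3 LC arrays. Without LC normal tissue 1 the Slc38a2 difference was 0.74 and was called (limma adjusted p = 0.027), and without LC normal tissue 2 that of Slc3a2 was 1.104 and was called (adjusted p = 0.039). Leaving out any other single array brought no call for either gene, and these called fits had 1 LC array fewer. On slides 1, 2 and 3, each with 1 LC tissue, Slc38a2 was 0.59, 0.69 and 0.84 higher, and Slc3a2 1.06, 0.53 and 1.01 higher, in the OP and OR tissues. Luminal epithelium markers were on the same side in 12 of 12 cases, with means per array of 11.07 to 11.32 in the OP and OR tissues and 9.36, 11.05 and 9.89 in the LC tissues, and a median difference of 1.25, and myoepithelial markers in 6 of 6 (1.14) and milk genes in 5 of 6 (1.29). Some other lists went the opposite way. Lower in the OP and OR tissues stood 7 of 8 macrophage markers (median difference -0.97), 7 of 7 T and NK cell markers (-1.08), 5 of 5 nerve and Schwann cell markers (-0.44) and 8 of 8 cell division genes (-0.98). The median difference was 0.04 for adipocyte, for fibroblast and matrix and for endothelium markers, and 0.27 for skeletal muscle markers. None of these markers was called. The macrophage means per array were 11.86 to 12.71 in the OP and OR tissues and 12.76 to 13.35 in the LC tissues. T and NK cell means were 7.92 to 8.35 in the OP and OR tissues. LC tissues 1, 2 and 3 had 7.98, 8.44 and 11.01, so LC tissue 3 stood apart. In the same order, cell division means were 7.58 to 8.55 against 7.84, 9.64 and 8.93. Milk gene means were 13.63 to 15.84 against 11.47, 16.00 and 13.09. The part of any of these cells in the Slc38a2 and Slc3a2 differences was not tested.

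OP against OR and LC normal tissue called 0 of 9 members and 0% of all genes, with 784 genes at an unadjusted p under 0.05. Slc38a2 had the smallest unadjusted p among the members (0.0059, adjusted p = 1.0, limma), with a difference of 0.37, and OP minus OR tissue was 0.0040 (95% interval -0.27 to 0.28). Slc7a5 in normal tissue ran against Slc38a2, at 7.15 ± 0.23 in the OP and OR tissues (SD, n = 5) and 7.60 ± 0.23 in the LC tissues (SD, n = 3), a difference of -0.45 (adjusted p = 0.36).

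Other amino acid transporters also changed in both directions. Of 47 listed, 30 could be tested, and in cancers 9 were higher, 8 lower and 13 not called, against 29.0% higher and 33.5% lower among all genes, with a median difference of 0.08 against -0.03 over all genes. The largest rises were those of Slc7a3, a cationic amino acid carrier (2.03), Slc7a7, the light chain of the y+L exchanger (1.84), and Slc25a15, the mitochondrial ornithine carrier (1.001). The largest falls were those of Slc36a2, the proton-coupled carrier PAT2 known in mouse and human as a surface marker of brown and beige fat cells (-4.07, with 1 of 12 cancers well above background), Slc1a3, a glutamate carrier (-2.34), and Slc7a8, the LAT2 light chain (-1.87). Adjusted p-values of these 6 lay between 2.1e-12 and 0.0031 (limma). With the 75th-percentile scalings, 3 and 2 members were higher and 22 and 23 lower.

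Genes of the amino acid response and serine synthesis did not move as a block. Of 20 tested, 10 were higher and 6 lower in cancers, against 29.0% higher and 33.5% lower among all genes. The median difference was 0.36, against -0.03 over all genes. Ddit4, an inhibitor of mTORC1 (1.66), Stc2, a secreted glycoprotein (1.29), and Cbs, which makes cystathionine (1.26), were higher, whereas Phgdh, the first enzyme of serine synthesis (-1.96), Trib3, a pseudokinase (-1.18), and Asns, the asparagine synthetase (-0.70), were lower. Known ATF4 targets stood on both sides, with Ddit4 and Stc2 higher and Asns and Trib3 lower. Slc38a2 and Slc7a5 are known targets too. Adjusted p-values of the 6 lay between 9.2e-06 and 0.0068 (limma).

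Of 20 genes of glutamine, glutamate and branched-chain metabolism, 5 were higher and 8 lower in cancers, against 29.0% and 33.5% of all genes. The median difference was -0.07, against -0.03 over all genes. The mitochondrial and cytosolic aspartate aminotransferases Got2 (1.82) and Got1 (1.49) and the glutaminase Gls2 (1.66) were higher. The glutamate dehydrogenase Glud1 (-0.79), the ornithine aminotransferase Oat (-0.75) and the glutamine synthetase Glul (-0.64) were lower. All 6 kept their direction and call under the 75th-percentile scalings.

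Cystine use and glutathione genes had 8 higher and 2 lower of 20, against 29.0% and 33.5% of all genes. Their median was 0.31, against -0.03 over all genes. Ggt1, which breaks down glutathione outside the cell, was higher by 2.84, the glutathione synthetase Gss by 0.86 and the NRF2 regulator Keap1 by 0.80. Gpx4, the lipid peroxidase that spends glutathione (-1.28), and the cystine carrier light chain Slc7a9 (-1.19) were lower. Among 12 genes of amino acid sensing and mTORC1, 7 were higher and 2 lower, against the same shares of all genes. The higher ones were led by Mtor (0.96), Tsc2 (0.81) and Rps6kb1 (0.78), and Tsc1 (-0.94) and Lamtor1 (-0.49) were lower. The calls of Mtor and Slc25a15 were lost with normexp scaled to the 75th percentile (adjusted p = 0.072 and 0.062), and the counts of these lists under the scalings were 6 higher and 7 to 9 lower for cystine and glutathione and 5 to 6 higher and 5 lower for mTORC1. In OP against OR and LC cancers, 0 genes of the 5 lists were called.

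**Figure D5:**
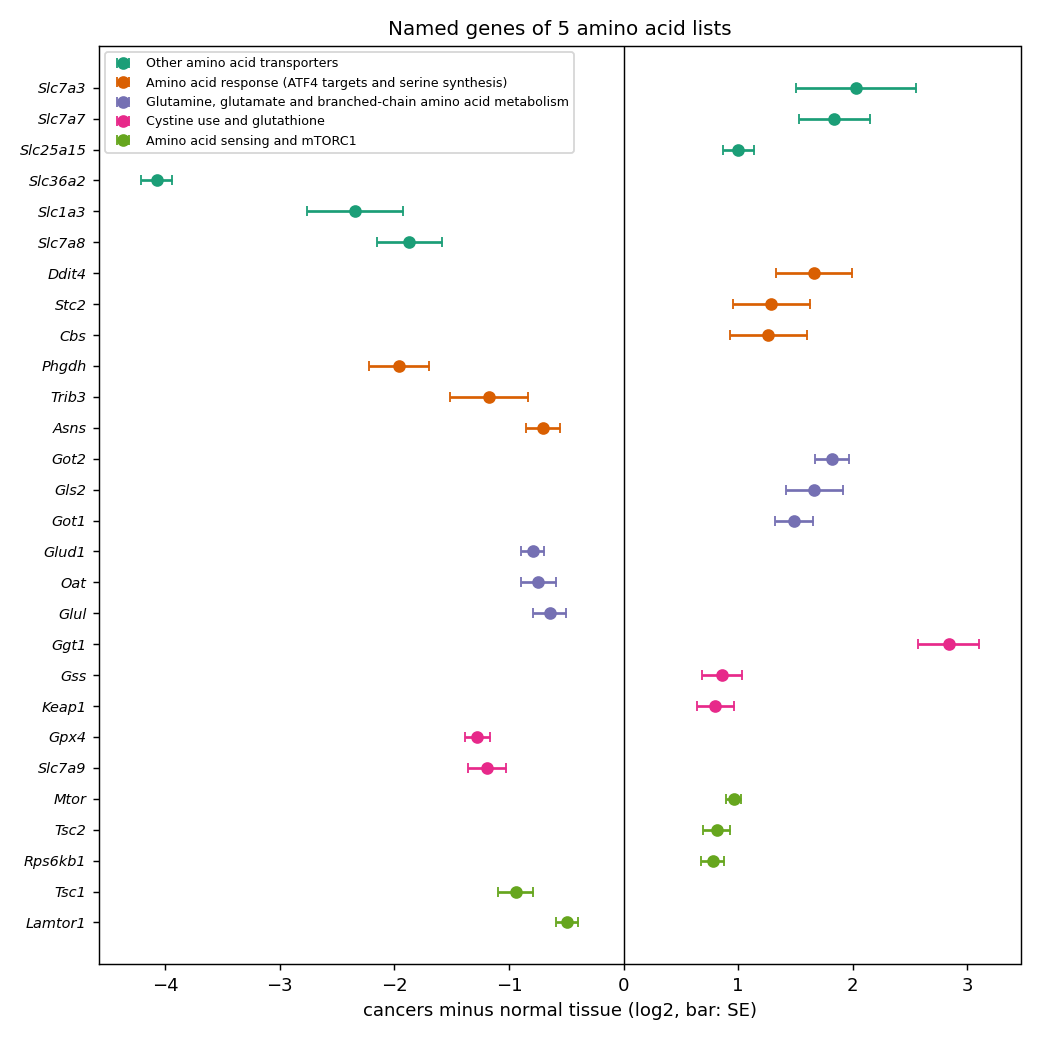
Cancers minus normal tissue on the log2 scale (x axis, bars for SE) of the genes named from 5 amino acid lists (y axis, coloured by list). Ggt1 lies highest at 2.84 and Slc36a2 lowest at -4.07.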

How the data were processed

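RNA of 12 mammary cancers and 8 normal mammary tissues was hybridised to 1-colour Agilent rat arrays, with a single sample on each. The scanner files hold spot and local background brightness as intensity, a processed signal, which is an intensity corrected for background within the array, and quality flags (other, 0 or 1), per the file headers from Agilent Feature Extraction 9.5.1.1 (10.7.3.1 per the submitters' processing notes). The authors' deposited value table is on a log2 scale, with scale and centring not stated. It tracked log2 processed signal less the 75th percentile of its array and the probe's own median, with r of at least 0.9998, its column medians ran from -0.15 to 0.24, and of its 20824 entries 20793 matched a probe. No spot was saturated (0 spots). The number of arrays limits the precision.

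The series' design text names RMA, so the main setting was normexp (offset 50) on the median spot and background signals with quantile normalization, in limma 3.58.1 (R 4.3.3, jsonlite 2.0.0). Figures used Python 3.11.15 and matplotlib 3.10.9. Of 41012 probes, 115 with an outlier mark and 825 well above background on under 0.5 of the arrays of every group were left out. The brightest probe stood for a gene, which gave 36043 genes, 8662 with a symbol, from 8991 of 13948 RefSeq accessions matched. The 20 arrays were fitted together for tissue contrasts (14 residual degrees of freedom) and each tissue alone otherwise (9 in cancers, 5 in normal tissue), with eBayes and Benjamini-Hochberg adjustment over all genes at 0.05. The fit was tested on simulated log2 levels, whereas background correction, normalization, the filter and the choice of probe were not. Alternatives changed the scaling, the filter, the probe rule, the slide, scan day or replicate block, array weights and single arrays.

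The members, the gene lists and the tests were chosen with earlier results of these data known. Named genes were the members, and from each of the 5 amino acid lists the 3 largest rises and 3 largest falls past the threshold between cancers and normal tissue, plus the 5 genes with the highest correlation with Slc38a4 over cancers and with Slc7a10 over normal tissue.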

Additional observations from a re-analysis of the deposited data

Results flagged for a closer look

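Among the 38 transporters, listed genes and summaries checked for 1 array standing apart from the other OP cancers (6 arrays, by the size of the gap to the nearest array over the whole range), 3 stood apart, where chance gives about 1 in 20. Slc36a2, the PAT2 carrier, read 6.80 in OP cancer 2, with the next highest array at 6.34 and the lowest at 6.20. Cbs, the cystathionine synthase, read 9.38 in OP cancer 2, with the next lowest at 10.34 and the highest at 10.61. Phgdh, the first enzyme of serine synthesis, read 11.72 in OP cancer 1, with the next lowest at 13.20 and the highest at 13.79.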

How the results depend on the processing

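Higher members in cancers numbered 4, and 2 with each 75th-percentile scaling and in the authors' table (which tests 4 members). Slc38a3 reversed to -0.60 (processed signal) and -0.46 (normexp), and Slc1a4 to -1.31 and -0.67. Lower members numbered 2, but 4 with normexp scaled to the 75th percentile and 1 in the authors' table and with the slide or the scan day as a block, and 1 to 2 leaving out single arrays. In OP rats 2 members were called, but 5 with either 75th-percentile scaling or array weights and 4 with the slide as a block. In OR rats 2 were called, but 4 with normexp scaled to the 75th percentile, 1 in the authors' table and 0 to 3 leaving out single arrays, where a lone normal array is assumed to vary like the other groups. In LC rats 5 were called, but 3 with either 75th-percentile scaling, the scan day as a block or array weights, 2 in the authors' table and 2 to 6 leaving out single arrays. The cause was not tested. Comparisons by obesity and the interaction kept 0 calls, and diet in normal tissue had 0 to 1 leaving out single arrays. Over all genes, array weights called 313 in OP against OR and LC cancers and the slide block 12, against 0. The slide block sets OP cancers against others only through the 1 OP and 1 LC cancer on slide 1.

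Groups share replicate numbers. Same-numbered samples had correlations of deviations from -0.20 to 0.07, which cannot tell whether the numbers pair samples of the same rat. Some same-numbered samples shared a slide, such as OP cancer 1 and OP normal tissue 1 on slide 1. With a replicate block, Slc7a5 stood at 1.34, Slc1a5 at -3.51 and Slc38a2 at 0.58 in cancers against normal tissue, and the counts stayed at 4 higher and 2 lower. In LC rats the 5 calls then held Slc7a5 in place of Slc38a3.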
